A study of Canis lupus familiaris with 16 samples.

Results

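The 9 genes followed here, of 41818 counted, are tied to the mesenchymal state and were measured over 16 canine soft tissue sarcomas. They were taken by name and are the transcription factors *SNAI1*, *SNAI2*, *ZEB1*, *ZEB2*, *TWIST1*, *TWIST2* and *PRRX1* and the proteins *VIM* (vimentin) and *CDH2* (N-cadherin). All 9 passed the filter on low values (10 or more counts in 4 or more tumors), as did 15408 genes in all, and were tested. The tumors were archived, formalin-fixed and paraffin-embedded masses from pet dogs, and RNA from whole sections was sequenced. By the molecular identity in the labels, 4 were fibrosarcomas (FS, from dogs aged 9 to 13 years), 6 were peripheral nerve sheath tumors (PNST, 8 to 13 years) and 6 were perivascular wall tumors (PWT, 2 to 14 years). No normal tissue is analysed here, no treatment or genotype is given for any group, and the dogs differed in breed and tumor site. S1-10 (histologically a PWT) and S2-08 (histologically an FS) hold a molecular identity that the study assigned from the expression of these same libraries, so the groups are not fully independent of the counts. Because sections were sequenced whole, a lower level can mean fewer cells of a type or less RNA per cell, and these cannot be told apart.

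In epithelial-mesenchymal transition, cells give up the junctions and polarity of an epithelium for a motile, matrix-producing state. The SNAIL family (*SNAI1*, *SNAI2*) and the ZEB family (*ZEB1*, *ZEB2*) are DNA-binding repressors of epithelial genes such as *CDH1* (E-cadherin), the TWIST proteins are basic helix-loop-helix factors, and *PRRX1* is a homeobox factor of limb and craniofacial mesenchyme. Sarcomas arise from mesenchymal cells, in which several of these factors are normally active.

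Between 507728 (S1-12, an FS) and 4311876 (S1-03, a PNST) reads per tumor were counted on genes. Levels are given as CPM, counts scaled to library size with TMM factors, and are compared between tumors and not between genes, since exon lengths were not used here. The names of 9 tumors begin with S1 and of 7 with S2, and the prefix was unevenly spread, with 3 S1 tumors in FS, 5 in PNST and 1 in PWT. Libraries were sequenced in separate groups, and whether the prefix marks them is not stated. Transcripts of epidermis marked 5 tumors, in which 10 keratinocyte genes summed to 953 to 1567 CPM (S1-02 and S1-12 in FS, S1-04 and S1-05 in PNST, S2-03 in PWT). The same sum was 111 in S1-11 and 4.12 to 21.1 in the other 10. Skeletal muscle transcripts marked S1-11, with a sum of 11063 CPM over 10 genes, S1-07 with 1248 and S2-09 with 682. Schwann cell markers did not separate PNST from the rest. Their sum was 179 to 707 CPM in PNST, 159 to 219.9 in FS and 172 to 354 in PWT, and *SOX10*, which defines that lineage, stayed between 1.08 and 7.42 CPM in all 16 tumors.

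**Figure D1:**
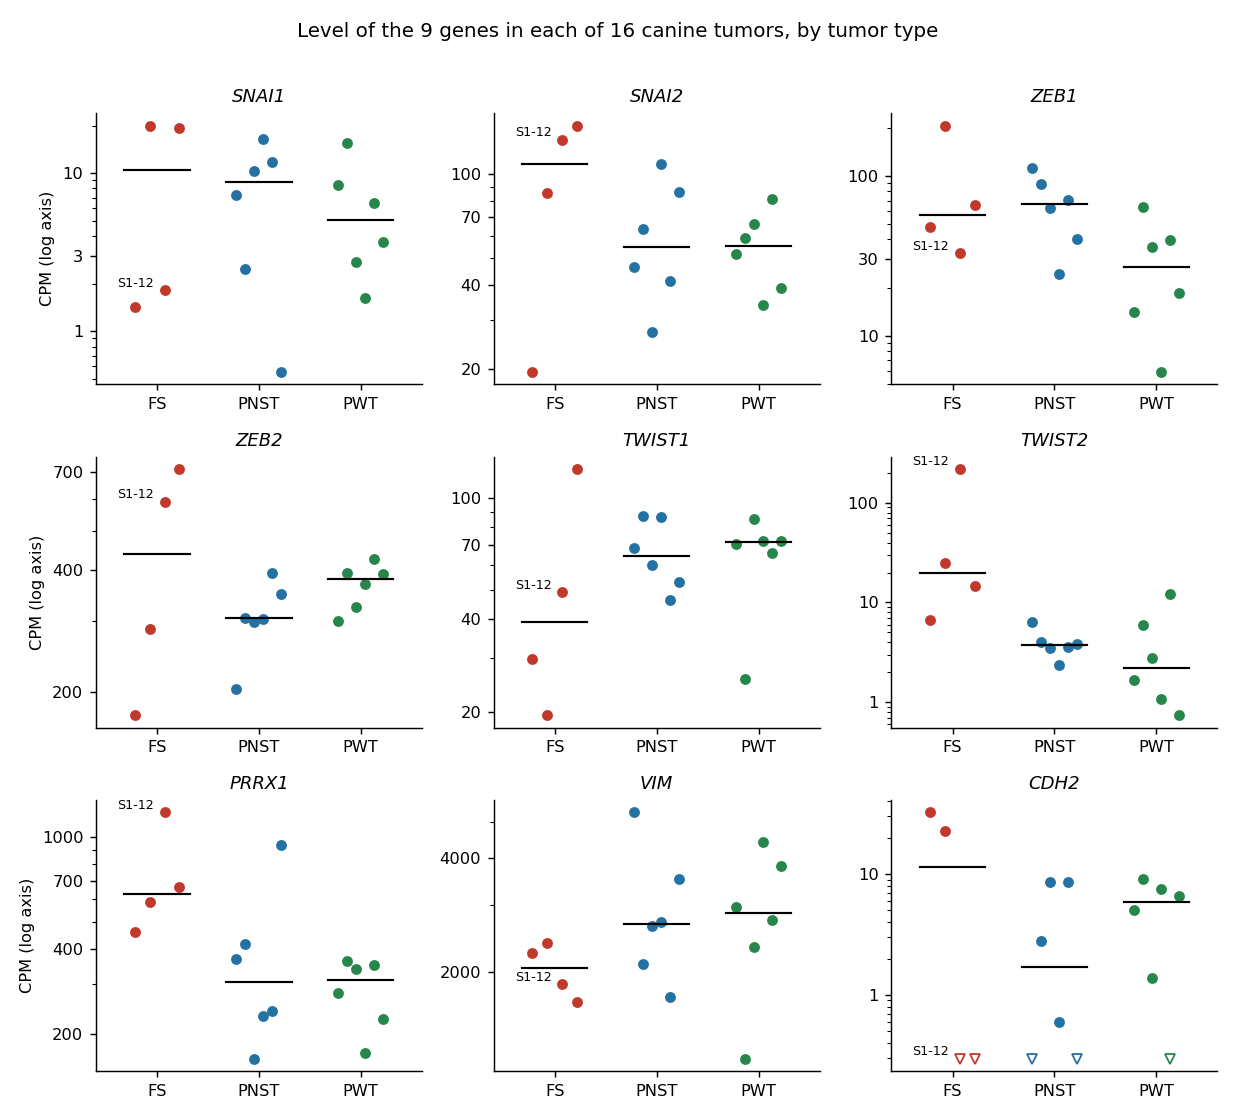
CPM of each of the 9 genes (y axis, log scale) in each tumor, by tumor type (x axis: 4 FS, 6 PNST, 6 PWT). Points are tumors, bars are medians, open triangles mark tumors with 0 counts drawn below the lowest value, and S1-12 is named. *TWIST2* in FS lay above every PNST, *PRRX1* in FS lay above every PWT, and the other 7 genes overlapped between all types.

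*TWIST2*, a basic helix-loop-helix repressor of dermal and skeletal mesenchyme, was higher in FS than in the other types. In FS it stood at 6.71 CPM in S1-02, 24.9 in S1-11, 219.6 in S1-12 and 14.5 in S2-06, from 19, 46, 121 and 31 counts. In PNST it ranged from 2.38 to 6.44 CPM (median 3.72) and in PWT from 0.737 to 12.1 (median 2.22), where 4 tumors held only 1 to 3 counts. All 4 FS thus lay above all 6 PNST, and 3 of the 4 lay above all PWT, while S1-02 lay below the PWT S2-09. Against PNST and PWT together, *TWIST2* was higher in FS by a log2 fold change of 3.96 (SE 0.64, edgeR's quasi-likelihood test with Benjamini-Hochberg adjusted p = 0.000928). It was the only one of the 9 genes past the threshold there, an adjusted p under 0.05 with a log2 fold change beyond 1 in either direction, which 9.44% of all tested genes passed. It was called there with each of the 16 tumors left out in turn.

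S1-12 set the size of that difference. Without it, *TWIST2* was higher in FS by 1.92 on the log2 scale (edgeR adjusted p = 0.0288). S1-12 was also the shallowest library and 1 of the 5 with epidermal transcripts. With those 5 left out, a choice made after seeing the data, the log2 fold change was 2.39 (edgeR adjusted p = 0.0324). The 3 sequencing runs of S1-12 gave 29, 30 and 62 *TWIST2* counts. Scaled to the total of each run, these were 204, 172 and 324 CPM (chi-square test, p = 0.00765, adjusted p = 0.120). Within each name prefix the FS were still the highest. Among S1 tumors the 3 FS stood at 6.71 to 219.6 CPM and the other 6 at 1.68 to 6.44, and among S2 tumors the 1 FS stood at 14.5 and the other 6 at 0.737 to 12.1.

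*TWIST1*, the paralog needed for cranial mesenchyme, did not share this pattern. Its FS levels were 29.7 CPM in S1-02, 19.5 in S1-11, 49.0 in S1-12 and 124 in S2-06. PNST ranged from 46.4 to 87.0 CPM (median 64.4) and PWT from 25.5 to 85.1 (median 71.4). The FS held both the highest and the lowest *TWIST1* of the 16 tumors, and the log2 fold change of FS against the rest was -0.24 (SE 0.37, edgeR adjusted p = 0.741). The estimate was 0.035 without S1-11 and -1.04 without S2-06.

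*PRRX1* was counted well above the filter in every tumor and was highest in an FS. The FS stood at 461 CPM in S1-02, 586 in S1-11, 1227 in S1-12 and 666 in S2-06. PWT ranged from 169.9 to 362 CPM (median 309.8), below all 4 FS. PNST ranged from 163 to 936 (median 305), and 5 of the 6 lay below all FS while S2-07, at 936, lay above 3 of them. Against PNST and PWT together the log2 fold change in FS was 1.11 (SE 0.37), which missed the threshold with edgeR (adjusted p = 0.0595) and passed it with DESeq2 (1.14, adjusted p = 0.0348), which called 9.79% of all genes.

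The call for *PRRX1* turned on the settings and on single tumors. With all tumors it was made with RLE factors in place of TMM (log2 fold change 1.15, edgeR adjusted p = 0.0495). With the name prefix in the model it was made as well (1.23, adjusted p = 0.0441). It was made without S2-07 (log2 fold change 1.36, edgeR adjusted p = 0.00646) and without S1-02 (1.28, adjusted p = 0.0490), whereas the estimate was 0.75 at the lowest when 1 tumor was left out. Within the S1 tumors the 3 FS stood at 461 to 1227 CPM and the other 6 at 163 to 416. Within the S2 tumors the 1 FS stood at 666, below S2-07 and above the 5 PWT.

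Against PWT alone, both *TWIST2* (log2 fold change 3.95, SE 0.84, edgeR adjusted p = 0.00639) and *PRRX1* (1.35, SE 0.42, adjusted p = 0.0416) were called higher in FS, 2 of the 9 genes against 11.2% of all genes. The groups did not overlap for *PRRX1*, as was true of 8.61% of all genes in that comparison. Against PNST alone, *TWIST2* was the 1 gene called (3.96, SE 0.81, edgeR adjusted p = 0.00768), against 7.13% of all genes, and its groups did not overlap, as for 7.22% of all genes. These comparisons share the 4 FS with each other and with the pooled comparison. Without S1-12, *TWIST2* missed the threshold in both, at 1.93 (edgeR adjusted p = 0.0694) against PNST and 1.91 (adjusted p = 0.0594) against PWT, and *PRRX1* against PWT was 0.99 (adjusted p = 0.139). The latter was also not called without any one of S1-03, S1-07, S1-11, S2-04, S2-06, S2-08, S2-09 or S2-11, with estimates of 1.23 to 1.44. With the name prefix in the model, *TWIST2* against PWT was 3.52 (adjusted p = 0.0824). Without the 5 tumors with epidermal transcripts, neither gene was called, with *TWIST2* at 2.30 (edgeR adjusted p = 0.0907) against PNST and 2.49 (adjusted p = 0.0541) against PWT, and *PRRX1* at 1.23 (adjusted p = 0.131) against PWT.

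**Figure D2:**
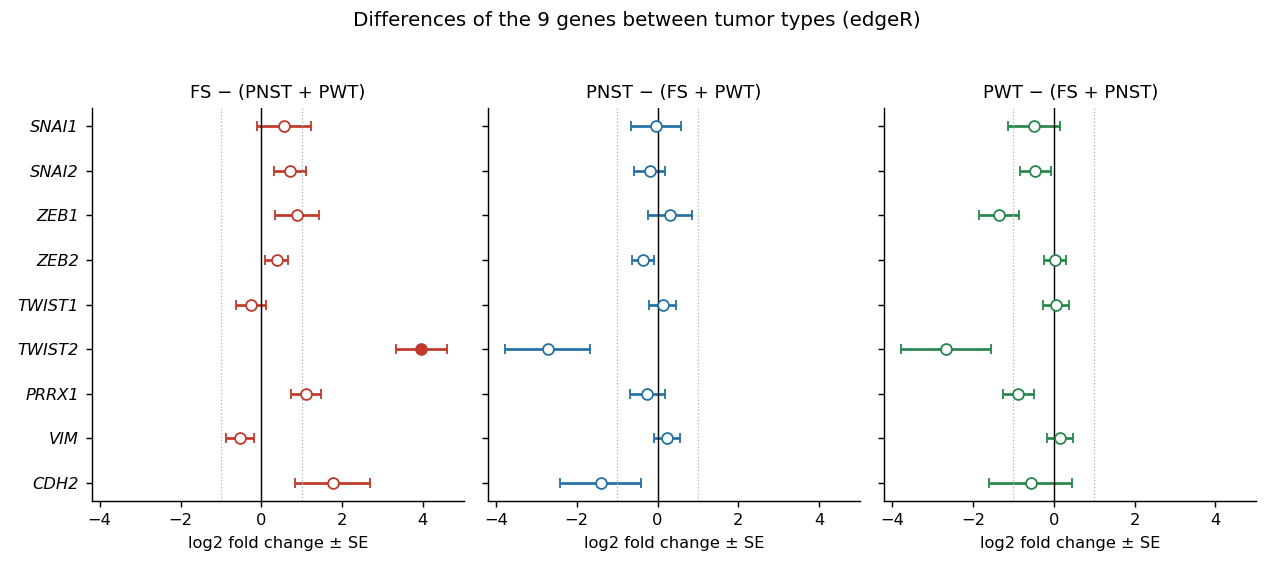
log2 fold change (x axis, edgeR) of each gene for each type against the other 2 types pooled, with bars of 1 SE. Filled points passed the threshold, open points did not, and dotted lines mark a log2 fold change of 1 in either direction. *TWIST2* in FS, at 3.96, is the only filled point.

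Neither ZEB repressor was called in any comparison by edgeR with no tumor left out. *ZEB1* in FS stood at 47.7 CPM in S1-02, 206 in S1-11, 32.7 in S1-12 and 66.0 in S2-06. PNST ranged from 24.4 to 111 CPM (median 66.7) and PWT from 5.91 to 64.1 (median 27.1). The PWT S1-07, S2-08 and S2-11, at 14.0, 5.91 and 18.4 CPM, lay below all 10 tumors of the other types, and S1-11 lay above every other tumor. In PWT against the rest the log2 fold change was -1.35 (SE 0.49) with an unadjusted p of 0.0135, which did not pass (edgeR adjusted p = 0.122). For FS against PWT it was 1.59 (SE 0.58, edgeR adjusted p = 0.0759). DESeq2 called the latter (1.61, adjusted p = 0.0475) along with 12.2% of all genes, and so did edgeR without the PWT S2-03 (2.02, adjusted p = 0.0302) and without the 5 tumors with epidermal transcripts (2.66, adjusted p = 0.0235). The estimate was 0.73 (edgeR adjusted p = 0.448) without the FS S1-11, 0.68 (adjusted p = 0.561) without the tumors with muscle transcripts and 0.83 (adjusted p = 0.519) by histology. PWT were lower within each prefix, by 2.21 on the log2 CPM scale in S1 (1 PWT against 8 tumors) and by 1.02 in S2 (5 against 2).

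*ZEB2* varied least in PWT. PNST ranged from 204 to 395 CPM (median 305) and PWT from 299.8 to 426 (median 382). The FS stood at 176 CPM in S1-02, 286 in S1-11, 589.9 in S1-12 and 712 in S2-06, and so bracketed all 12 other tumors. The log2 fold change of FS against the rest was 0.38 (SE 0.28, edgeR adjusted p = 0.440). *ZEB2* is also transcribed in macrophages, whose 10 markers summed to 191 to 1462 CPM in FS, 253 to 646 in PNST and 217 to 828 in PWT. Among the FS the macrophage sum was 1462 CPM in S1-02, 680 in S1-11, 191 in S1-12 and 337 in S2-06, and 3 of the 10 markers were at 0 counts in S1-12. The part of macrophages in the *ZEB2* level was not tested.

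*SNAI1*, the Snail repressor, had 1 to 55 counts per tumor. Its CPM was 1.41 in S1-02, 20.0 in S1-11, 1.82 in S1-12 and 19.2 in S2-06 among FS, 0.552 to 16.4 in PNST (median 8.82) and 1.61 to 15.5 in PWT (median 5.06). S1-11 and S2-06 were the highest of all 16 tumors and the other FS were low, S1-12 with 1 count. The PNST S2-07 also held 1 count, which allows 0.0140 to 3.08 CPM by the exact 95% Poisson interval. FS differed from the rest by a log2 fold change of 0.56 (SE 0.67, edgeR adjusted p = 0.652), less than its SE.

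*SNAI2* (Slug), the neural crest factor of the family, was counted 47 to 367 times per tumor. The FS stood at 19.4 CPM in S1-02, 85.4 in S1-11, 133 in S1-12 and 149 in S2-06. PNST ranged from 27.0 to 109 (median 54.9) and PWT from 33.9 to 81.4 (median 55.3). S1-02 was the lowest of all 16 tumors, and the other 3 FS lay above all PWT. The log2 fold change of FS against the rest was 0.71 (SE 0.39, edgeR adjusted p = 0.266) and passed the threshold when S1-02 was left out (1.06, adjusted p = 0.0492).

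Neither structural protein separated the types. *VIM*, the intermediate filament of mesenchymal cells, stood at 2243 CPM in S1-02, 2380.2 in S1-11, 1857 in S1-12 and 1662 in S2-06 among FS, at 1721 to 5296 in PNST (median 2686) and at 1180.5 to 4420.1 in PWT (median 2864). The 4 FS spanned 1.43-fold, the narrowest range of *VIM* in any type, inside that of the PWT. The log2 fold change in FS was -0.54 (SE 0.35, edgeR adjusted p = 0.356).

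*CDH2* was near the limit of detection. N-cadherin was at 0 counts in 5 tumors of all 3 types, where 0 counts allow up to 0.840 CPM in S1-03, 5.45 in S1-12, 1.40 in S2-06, 1.66 in S2-07 and 2.42 in S2-09 (3 counts of each total, counting error only). Elsewhere it was 32.5 CPM in S1-02 and 22.7 in S1-11, both FS, up to 8.63 in PNST and up to 9.15 in PWT. Hence the 2 FS with counts were the highest of the 16 tumors and the other 2 FS were at 0. The log2 fold change of FS against the rest was 1.77 (SE 0.92, edgeR adjusted p = 0.241).

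**Figure D3:**
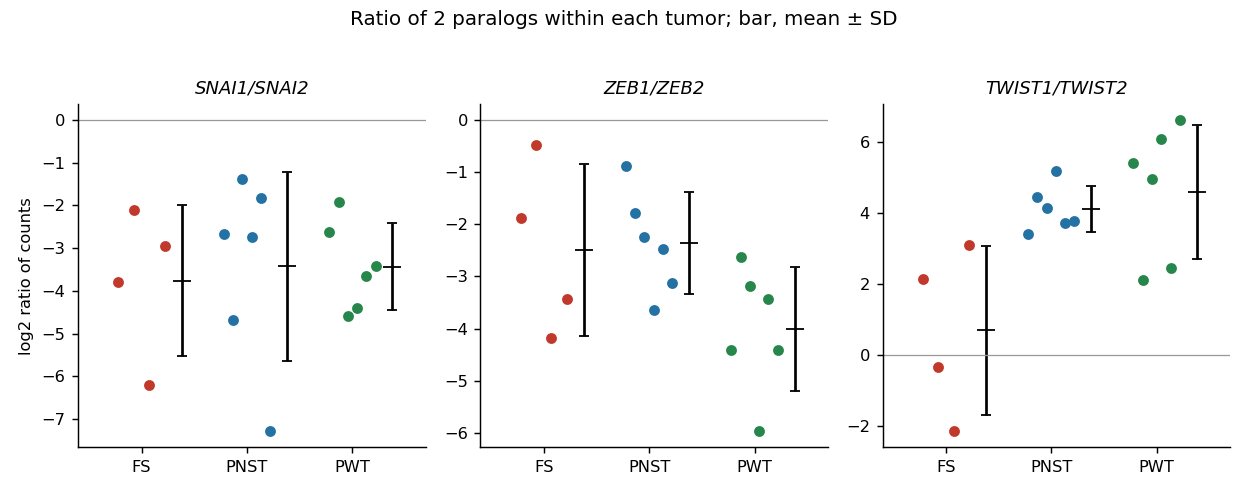
log2 ratio of the counts of 2 paralogs within a tumor (y axis) by tumor type (x axis), with points for tumors and the mean ± SD beside them (n = 4 FS, 6 PNST, 6 PWT). *TWIST1/TWIST2* was below 0 in 2 of the FS and above it in every other tumor.

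Ratios of paralogs within a tumor, which no scaling between tumors can change, were compared after the levels were seen. The ratio *TWIST1/TWIST2* was 4.42 in S1-02, 0.783 in S1-11, 0.223 in S1-12 and 8.55 in S2-06, and 4.27 to 98.0 in the other 12 tumors. Only S1-11 and S1-12 held more *TWIST2* than *TWIST1* counts, and the other 2 FS overlapped with PWT. The mean log2 ratio was 0.68 ± 2.39 (SD, n = 4) in FS and 4.35 ± 1.37 (SD, n = 12) in the rest, a difference of -3.67 (two-sided exact permutation test, p = 0.00275, adjusted p = 0.0247 over 9 tests). It was not called without S1-02, S1-11 or S1-12, with differences of -4.16, -3.32 and -2.72 and adjusted p of 0.0593, 0.0989 and 0.0593 in the exact permutation test. The ratio *ZEB1/ZEB2* was lower in PWT than in the rest by 1.60 on the log2 scale (exact permutation test, p = 0.0212, adjusted p = 0.0955), which did not pass. In the other 7 of the 9 tests, those of *SNAI1/SNAI2* included, the adjusted p of the exact permutation test lay between 0.350 and 0.886.

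For PNST against FS and PWT, 0 of the 9 genes were called, and 0% of all genes were (edgeR), while 2418 genes (15.7%) had an unadjusted p under 0.05 and DESeq2 called 291 (1.54%), none of the 9 among them. *TWIST2* alone among the 9 had an unadjusted p under 0.05, with a log2 fold change of -2.72 (SE 1.05, edgeR adjusted p = 0.250) that was -0.99 without the FS S1-12. The other 8 ranged from -1.41 (*CDH2*, SE 1.00) to 0.31 (*ZEB1*, SE 0.54). For PWT against FS and PNST, 0 of the 9 were called against 2.09% of all genes. An unadjusted p under 0.05 was given to 22.4% of all genes and to 3 of the 9, whose estimates were all below 0. These were *ZEB1*, *TWIST2* (-2.66, SE 1.12, edgeR adjusted p = 0.1695, and -0.92 without S1-12) and *PRRX1* (-0.87, SE 0.39, edgeR adjusted p = 0.192). DESeq2 called 5.02% of all genes there and none of the 9, and gave -0.89 for *TWIST2*.

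PNST and PWT differed in none of the 9 genes by edgeR's test, against 0.0714% of all genes (11 genes, with 19.5% at an unadjusted p under 0.05), and in none by DESeq2, which called 3.38%. *ZEB1* came nearest, with a log2 fold change of 1.17 higher in PNST (SE 0.53, unadjusted p = 0.0406, adjusted p = 0.233), and the *TWIST2* estimate was -0.014 (SE 0.81). Along tumor grade, entered as a number with grade 1/2 as 1.5 and a term for tumor type, 0 of the 9 and 0% of all genes passed with edgeR, with 1184 genes (7.68%) at an unadjusted p under 0.05 and 39 (0.207%) called by DESeq2, none of the 9 among them. The estimates per grade ran from -0.73 (*TWIST2*, SE 0.68) to 0.50 (*SNAI1*, SE 0.57), and the smallest unadjusted p was 0.136 for *TWIST1* (0.40, SE 0.26), which ranged from 0.061 to 0.63 as single tumors were left out. Grade 3 was given to 2 tumors. All 10 keratinocyte markers had a negative estimate along grade at an unadjusted p under 0.05 (median -5.51, none past the threshold), and the part of the epidermal transcripts in the grade estimates was not tested beyond leaving out those 5 tumors.

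**Figure D4:**
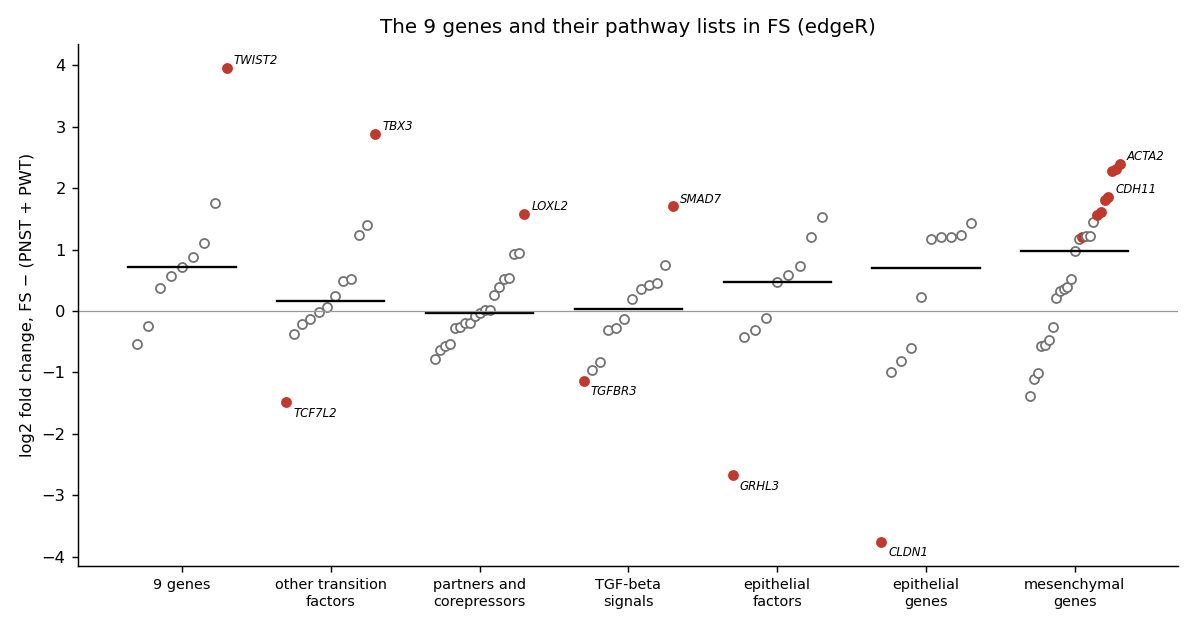
log2 fold change of FS against PNST and PWT (y axis, edgeR) for the 9 genes and for 6 lists of genes of the same pathway, 1 point per tested gene and a bar at each list's median. Filled points passed the threshold. The mesenchymal genes hold 8 filled points, and the medians are 0.98 for them and 0.03 for the TGF-beta signals.

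The genes around the 9 were read from 6 lists. Among 25 genes that rise in mesenchymal transition, 8 passed as higher in FS and 0 as lower, with a median log2 fold change of 0.98 beside 0.00 over all genes, of which 5.78% were called higher. They included *CDH11* (cadherin-11, 1.86, SE 0.44, edgeR adjusted p = 0.0103), *ACTA2* (smooth muscle actin, 2.40, SE 0.63, adjusted p = 0.0198), *COL5A2* (a fibrillar collagen, 1.20, SE 0.34) and *COL1A1* (type I collagen, 1.81, SE 0.51). This count rested on S1-11, where *COL1A1* stood at 40707 CPM beside 1734 to 12707 in the other 15 tumors, and where skeletal muscle transcripts were highest. Without S1-11, 0 of the 25 were called with a median of 0.51, while 3.61% of all genes were called higher. By histology 0 of the 25 were called beside 1.24% of all genes, and without the tumors with muscle transcripts 0 beside 2.71%. Without S1-12, 8 were called. Fibronectin (*FN1*) was not called in FS against the rest (-0.57, SE 0.47). For FS against PNST alone, 0 of the 25 were called, with a median of 0.80, while 7.13% of all genes were called. For FS against PWT alone, 10 were called higher, with a median of 0.84, beside 11.2% of all genes called either way. In PWT, 1 of the 25 was called beside 2.09% of all genes, *COL1A1*, lower than in the rest (-2.03, SE 0.52, edgeR adjusted p = 0.0455). It was not called by histology, with the prefix in the model, or without the tumors with epidermal or muscle transcripts. With single tumors left out it was -2.22 to -1.49 and was called in 5 of 16 cases, those without S1-10, S1-11, S1-12, S2-06 or S2-07.

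Markers of some other cells were also called higher in FS, to be read beside the 5.78% of all genes called higher there. Those of skeletal muscle were called most often, 3 of 3 tested (*MYH7*, *NEB* and *TTN*, median log2 fold change 4.08). Without S1-11, 0 of the 2 then tested were called. None was called in either direction among the tested markers of endothelium, lymphocytes, Schwann cells, keratinocytes or adipocytes. Of 10 markers of pericytes and smooth muscle, a list that does not hold *ACTA2*, 2 were called higher in FS, and 6 had an unadjusted p under 0.05, with a median log2 fold change of 1.35. The 2 were *CNN1* (calponin, 2.44, SE 0.62, edgeR adjusted p = 0.0162) and *MCAM* (1.35, SE 0.41, adjusted p = 0.0403). The 10 summed to 627 to 1710 CPM in FS, 392.5 to 862 in PNST and 398 to 728 in PWT, and *KCNJ8* was the 1 at 0 in any tumor. Without S1-11 none of the 10 was called, with a median of 0.63, and none was by histology. Of 10 macrophage markers 1 was called higher, *C1QB* (1.502, SE 0.47, edgeR adjusted p = 0.0488), with a median of 0.98, and it was not called without S1-02 (0.31), without S1-11, with the prefix in the model, by histology or without the tumors with epidermal or muscle transcripts. Of 10 fibroblast markers 3 were called higher (*COL1A1*, *COL3A1* and *LUM*, which the mesenchymal list also holds), with a median of -0.13. None of the 10 was called without S1-11, by histology or without the tumors with muscle transcripts. In FS against PNST, 0 of the 10 were called higher. The 1 called there, beside 7.13% of all genes, was *PDGFRA*, lower in FS (-1.18, SE 0.36, edgeR adjusted p = 0.0498). The part of these cells in the counts was not tested.

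Each of the lists that follow held 1 or 2 genes called in FS against the rest, to be read beside the 9.44% of all genes called there. Of 23 further transition factors 12 were tested, and *TBX3*, a T-box repressor of limb and skin mesenchyme, was higher in FS (2.88, SE 0.41, edgeR adjusted p = 0.000331). It stood at 35.7 CPM in S1-02, 58.9 in S1-11, 56.3 in S1-12 and 13.1 in S2-06, and at 1.61 to 11.1 in the other 12 tumors, so that all FS were above all others, which 1.57% of all genes were. It was called without each FS in turn, without the tumors with epidermal or muscle transcripts and by histology. *TCF7L2*, a nuclear partner of beta-catenin, was lower in FS (-1.49, SE 0.32, adjusted p = 0.00574) and was not called by histology or without the tumors with epidermal transcripts. Among 20 partners and corepressors of the 9 genes, of which 19 were tested, *LOXL2*, a lysyl oxidase that binds SNAIL, was the 1 called (1.59, SE 0.36, edgeR adjusted p = 0.00855) and was 1.03 (adjusted p = 0.0867) without S1-02, where it stood at 244.9 CPM, and it was not called by histology or without the tumors with epidermal transcripts. The E proteins that pair with TWIST were not called, with log2 fold changes in FS of -0.27 for *TCF4* (SE 0.39) and 0.95 for *TCF12* (SE 0.44), nor was their inhibitor *ID1* (-0.20, SE 0.68).

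Of 12 genes of TGF-beta signalling, which induces several of the 9, 2 were called in FS against the rest beside 9.44% of all genes. The inhibitor *SMAD7* was higher (1.70, SE 0.42, edgeR adjusted p = 0.0141) and the co-receptor *TGFBR3* lower in FS (-1.13, SE 0.29, adjusted p = 0.0188). Neither was called without S1-11, without S1-12, by histology or without the tumors with epidermal or muscle transcripts. In FS against PNST, 2 of the 12 were called beside 7.13% of all genes, *TGFBR3* (-1.15) and the ligand *TGFB1*, both lower in FS. *TGFB1* differed by -1.18 (SE 0.29, edgeR adjusted p = 0.0180), at 14.6 to 29.0 CPM in FS and 35.9 to 57.1 in PNST. By histology, 0 of all genes were called in that comparison. The receptor *TGFBR2* was not called in FS against the rest (-0.13, SE 0.34).

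*CDH1*, the E-cadherin gene that the SNAIL and ZEB factors repress, stood at 25.4 to 47.3 CPM in the 5 tumors with epidermal transcripts and at 0 to 70.2 in the other 11 (median 5.16), the 70.2 being the FS S2-06, with a keratinocyte sum of 21.1 CPM. In FS against the rest it was 1.18 (SE 0.82, edgeR adjusted p = 0.397). *EPCAM* was at 0 counts in 9 of the other 11 tumors, and *OVOL1* and *GRHL2*, epithelial factors that oppose the ZEB genes, were at 0 in 7 and 6 of them, although *GRHL2* was highest of all in S1-11 (16.8 CPM). The part of attached epidermis in these levels was not tested. Of 21 epithelial genes 10 were tested, and *CLDN1* (claudin-1, also made by perineurial cells) was lower in FS (-3.76, SE 0.95, edgeR adjusted p = 0.0166). Of 13 epithelial factors 9 were tested, and *GRHL3* was lower (-2.68, SE 0.78, adjusted p = 0.0342). These counts of 1 in 10 and 1 in 9 lie near the 9.44% of all genes called. Neither was called without S1-11, by histology or without the tumors with epidermal or muscle transcripts, nor was *GRHL3* without S1-12 or S2-06. The lists did not fall as a whole in FS against the rest. Their median log2 fold changes were 0.70 for the 10 epithelial genes and 0.47 for the 9 factors, beside 0.00 over all genes. Without the tumors with epidermal transcripts the medians were -2.06 over 6 tested genes and -0.54 over 3 tested factors.

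Counts on the genes of the microRNAs that restrain *ZEB1* and *ZEB2* do not measure the mature forms, and 0 of 6 passed the filter. *MIR200A*, *MIR200B*, *MIR141* and *MIR429* had 0 counts in all 16 tumors and *MIR200C* had 5 counts, all in S2-03. *MIR205* had 1 to 28 counts in the 5 tumors with epidermal transcripts and 0 in the other 11.

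**Figure D5:**
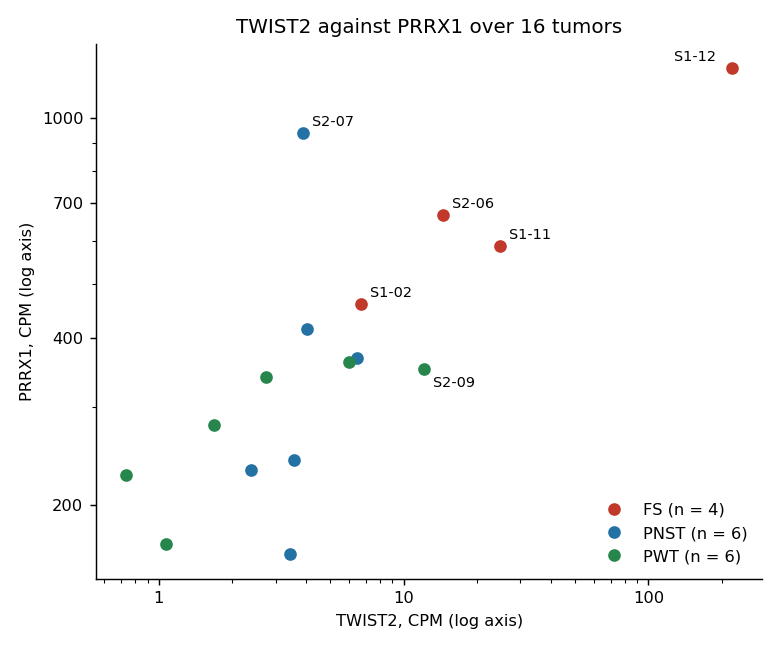
*PRRX1* against *TWIST2* in CPM (both axes log scale), 1 point per tumor, colored by type, with 6 tumors named. The 4 FS lie at the upper right, S1-12 farthest (219.6 and 1227 CPM), and the PNST S2-07 has 936 CPM of *PRRX1* beside 3.87 of *TWIST2*.

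Across the 16 tumors, *TWIST2* and *PRRX1* varied together. Of the 36 pairs among the 9 genes, theirs alone held after adjustment, with Pearson's r = 0.77 (permutation test, p = 0.00036, adjusted p = 0.0130) and Spearman's rho = 0.81 (permutation test, p = 0.00024, adjusted p = 0.00864) of log2 CPM. Without S1-11 and S1-12, the tumors farthest from the median of *TWIST2*, r was 0.60. It was 0.89 over the 9 S1 tumors and 0.63 over the 7 S2 tumors. Once each type was centred on its mean, r was 0.57 and no longer passed (permutation test, adjusted p = 0.120), while rho was 0.76 (permutation test, adjusted p = 0.0162). *SNAI2* and *CDH2* ran in opposite directions, with r = -0.63 (permutation test, p = 0.0104, adjusted p = 0.110) and rho = -0.60 (permutation test, p = 0.0165, adjusted p = 0.151), which did not hold after adjustment, and r was -0.44 without S1-02 and S2-06. The repeat runs of the S1 tumors bear on the error of single values. Of 63 sets of run counts large enough to compare, 8 had an unadjusted chi-square p under 0.05 and 0 an adjusted one, with a median chi-square per degree of freedom of 0.733.

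The genes whose levels ranked most like each member over the 16 tumors are given as a description, out of 15407 genes and sharing libraries and depth. For *TWIST2* they were *AUTS2* (Spearman's rho 0.92), *ACTN1* (alpha-actinin-1, 0.92) and *HGSNAT* (0.90). For *PRRX1* they were *DKK1* (an inhibitor of Wnt signalling, 0.91), *NSDHL* (0.91) and *DZIP1* (0.89). *DKK1* stood at 223 CPM in S1-12, 37.6 in S2-07 and 30.9 in S2-06, which were the 3 tumors highest in *PRRX1*, and at 0 to 8.48 elsewhere. *ZEB1* ranked most like *SNX18* (0.87), *TIMP3* (0.84) and *DOCK5* (0.83), and *ZEB2* like *LOC611670* (0.85), *RPA3* (0.83) and *DHX36* (0.82). *SNAI1* ranked most like *LOC119872381* (0.81), *ZNF772* (0.79) and *SEMA3G* (0.77), and *SNAI2* like *PDLIM1* (0.84), *ITGA8* (0.83) and *C7H18orf21* (0.83). *TWIST1* ranked most like *LOC119866867* (0.89), *TNIP3* (0.77) and *CHEK2* (0.74), and *CDH2* like *LOC119871171* (0.77), *HLA-DRB1* (0.76) and *C5AR2* (0.76). *VIM* ranked most like the ribosomal protein genes *RPS3A* (0.87) and *RPL19* (0.87) and *TOMM7* (0.84).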

How the data were processed

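RNA of 16 canine tumors was sequenced on the Ion Proton after depletion of ribosomal RNA. Per the study's methods, the authors aligned reads to ROS-canfam-01 with STAR and counted them with htseq-count, and deposited raw counts per gene, not normalized. Whether counting used strand is not given in the sources used here. The 34 runs (3 for each of 9 tumors, 1 for each of 7) were summed per tumor, and each tumor was 1 sample. Of the reads listed, 22.9% to 30.6% per tumor were counted on genes, and the htseq-count rows that name no gene were left out. Groups are the labels' molecular identity. S1-04 and S1-05 have identical labels and may come from 1 dog. Genes reaching 10 counts in 4 tumors or more were tested with TMM factors and edgeR 4.0.16's quasi-likelihood test (glmQLFit, glmQLFTest) in R 4.3.3, each type against both others pooled, each pair of types, and grade, with Benjamini-Hochberg adjustment over 15408 genes, and called at an adjusted p below 0.05 with a log2 fold change beyond 1 either way (for grade, on the adjusted p alone). All 16 tumors entered every fit, and pairs of types came from a model with a mean for each type. DESeq2 1.42.0 was an alternative. Correlations used log2 CPM with a prior count of 0.5 and 100000 two-sided permutations. The tests were tried on simulated counts. Intervals and the limit for 0 counts (3 counts) cover counting error only. The members and lists were chosen with earlier results of these data known. The text names the 9 genes, list genes past the threshold (at most 4 per list and comparison by smallest p) and defining genes of the lists, and the microRNA genes and *SOX10* besides. Genes most like a member are the 3 with the highest Spearman's rho.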

Additional observations from a re-analysis of the deposited data

Results flagged for a closer look

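In each type and gene, the tumor farthest from the others was compared with the range of its group, 27 groups in all. The gap was measured in CPM and not on the log2 scale, and how many groups chance alone would mark was not tested. In 3 groups a tumor was marked, with a gap of 0.91, 0.67 and 0.68 of the range in the order given here. *TWIST2* in the FS S1-12 was 219.6 CPM (121 counts), and the nearest FS was at 24.9. *PRRX1* in the PNST S2-07 was 936 CPM (1695 counts), and the nearest PNST was at 416. *TWIST1* in the PWT S2-03, 1 of the 5 tumors with epidermal transcripts, was 25.5 CPM (64 counts), and the next PWT was at 66.1. Groups left unmarked also held wide gaps. *ZEB1* in the FS S1-11 was 206 CPM with the next FS at 66.0, and *PRRX1* in the FS S1-12 was 1227 CPM with the next FS at 666.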

How the results depend on the processing

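No paired analysis was possible because each tumor was of a single type and the labels link no tumors across types. The call of *TWIST2* in FS against the rest held under all 12 other settings and with each tumor left out. The number of the 9 genes called there was 2 with DESeq2, RLE factors or the prefix in the model, and 1 to 3 with a tumor left out. For FS against PNST it was 0 by histology or without the tumors with epidermal transcripts, and 0 to 2 with a tumor left out. For FS against PWT it was 0 by histology, 1 with the prefix in the model (*PRRX1*), 1 without S1-10 and S2-08 or without the tumors with muscle transcripts (*TWIST2*), 1 without those with epidermal transcripts (*ZEB1*, in place of both), and 0 to 3 with a tumor left out. The call of *PRRX1* there was lost without any of 9 tumors. The ratio tests called were 0 by histology and 0 to 1 with a tumor left out, and the related pairs were 1 to 2. Leaving out the tumors with epidermal or muscle transcripts was chosen after seeing the data.

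Over 1766 pairs of an estimate of 1 of the 9 genes and a setting, 89 had the other sign, and in 5 of them the reported estimate was larger than its SE. In FS against the rest *TWIST1* was 0.10 without the epidermal and 0.069 without the muscle tumors (-1.04 to 0.035 with a tumor left out), and *ZEB1* -0.076 without the muscle tumors. In PNST against the rest *ZEB1* was -0.043 with the prefix and *PRRX1* 0.21 without the epidermal tumors (-0.72 to 0.036). *ZEB1* in FS against PNST was -0.41 without the muscle tumors (-0.44 to 0.68). Between PNST and PWT *TWIST2* was 0.11 without the filter, 0.0074 with S1-04 and S1-05 summed, 0.19 without the epidermal and 0.48 without the muscle tumors (-0.23 to 0.62), and *PRRX1* was -0.022 to 0.60 with a tumor left out. The causes were not tested.

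Over all genes, FS against the rest called 1455 genes, 205 by histology and 660 without the muscle tumors. FS against PNST called 1099, with 1774 in DESeq2, 0 by histology, 635 without S1-10 and S2-08, 693 and 675 without the epidermal and muscle tumors. FS against PWT called 1727, with 5 by histology, 895 with the prefix and 658 without the muscle tumors. PWT against the rest called 322, with 875 in DESeq2, 0 by histology, with the prefix or without the epidermal tumors, 140 without S1-10 and S2-08, 179 by library totals, 128 without the filter and 20 without the muscle tumors. PNST against the rest and grade called 0, with 291 and 39 in DESeq2 and 2 and 260 without the filter, and PNST 1 without the epidermal tumors. PNST against PWT called 11, with 0 to 34 in the other settings of edgeR and 517 in DESeq2. Genes at 1 to 3 counts, such as *TWIST2* in 4 PWT, limit the depth of these comparisons.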
